A study of Homo sapiens with 27 samples.

Results

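The 45 genes described here encode proteins of the extracellular matrix and the enzymes, proteases and inhibitors that build and remodel it. Their mRNAs were measured in U2OS cells, a human osteosarcoma line. The genes were selected by symbol, by a rule that uses no measured value, although the list was chosen with earlier results of these data known. They are 45 of the 34464 genes in the deposited expression table. Their mean level over all 27 libraries was above 1 FPKM (fragments per kilobase of transcript, scaled to the depth of the library) for 41 of the 45, and these 41 were among the 14611 genes tested. U2OS cells received a lentiviral shRNA for 5 days, either a control shRNA or one of the TPR shRNAs "TPR A" and "TPR D", which target the nuclear pore protein TPR. Poly(A) RNA was sequenced from a nuclear fraction, a cytoplasmic/ER fraction and the total lysate of each culture, with 3 replicates of each of the 9 combinations. The nuclear fraction was the pellet left after the cells were opened with Triton X-100 and deoxycholate, the cytoplasmic/ER fraction was the supernatant, and the total sample was set aside before detergent was added. Every group shares the same cell line and the same vector treatment, and depletion by shRNA leaves part of the target mRNA in place. The labels number the replicates and do not say how the cultures were kept apart, so p-values measure the spread between these samples.

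Matrix proteins are secreted. Their mRNAs are exported through nuclear pores and translated on the endoplasmic reticulum (ER), where the start of the nascent chain, the signal peptide, is read by the signal recognition particle. Fibrillar collagens then form a triple helix from long runs of Gly-X-Y repeats and are modified by prolyl hydroxylases, guided by the chaperone HSP47 (SERPINH1) and cross-linked outside the cell by lysyl oxidases. TPR forms the nuclear basket, the filaments on the inner face of the pore. Osteoblasts are known for type I collagen and for mineral-binding matrix proteins, and an osteosarcoma line may keep only some of these.

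The first bases of the coding sequence encode the signal peptide in most of these proteins, and signal peptide coding regions are known to be poor in adenine. The share of adenine in the first 69 coding nt was computed from the Ensembl canonical transcript of each gene (GENCODE release 44 mapped to GRCh37). It had a median of 11.6% over the 41 members above 1 FPKM, between 2.9% and 24.6%. Over 12207 protein-coding genes tested the median was 20.3%, and 36 of the 41 members lay below it. The other 5 were COL3A1, COL5A2, COL11A1, LAMB2 and P4HA1. Over the whole coding sequence the medians were closer, at 23% and 25.8%. The first 30 coding nt of 8 members are given here, 5′ to 3′ on the coding strand, because they span the range of adenine shares and belong to the genes that the comparisons turn on. Capitals mark adenine.
TGFBI: Atggcgctcttcgtgcggctgctggctctc
HSPG2: Atggggtggcgggcggcgggcgcgctgctg
TIMP2: AtgggcgccgcggcccgcAccctgcggctg
FN1: AtgcttAggggtccggggcccgggctgctg
COL12A1: AtgcggAgtAggcttcccccAgcgcttgcc
COL1A1: AtgttcAgctttgtggAcctccggctcctg
P4HA1: AtgAtctggtAtAtAttAAttAtAggAAtt
COL5A2: AtgAtggcAAActgggcggAAgcAAgAcct
Of these, TGFBI had the lowest share over 69 nt, 2.9%, and COL5A2 the highest, 24.6%. HSPG2 and TIMP2 had 4.3% each, FN1 7.2%, COL12A1 10.1%, COL1A1 13% and P4HA1 21.7%. In GRCh37 the start codon of TGFBI begins at position 135364745 of chromosome 5 on the forward strand. The other 7 genes are on the reverse strand, and for COL1A1 the start codon begins at 48278874 of chromosome 17, inside the gene at chr17:48261462-48278993.

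**Figure D1:**
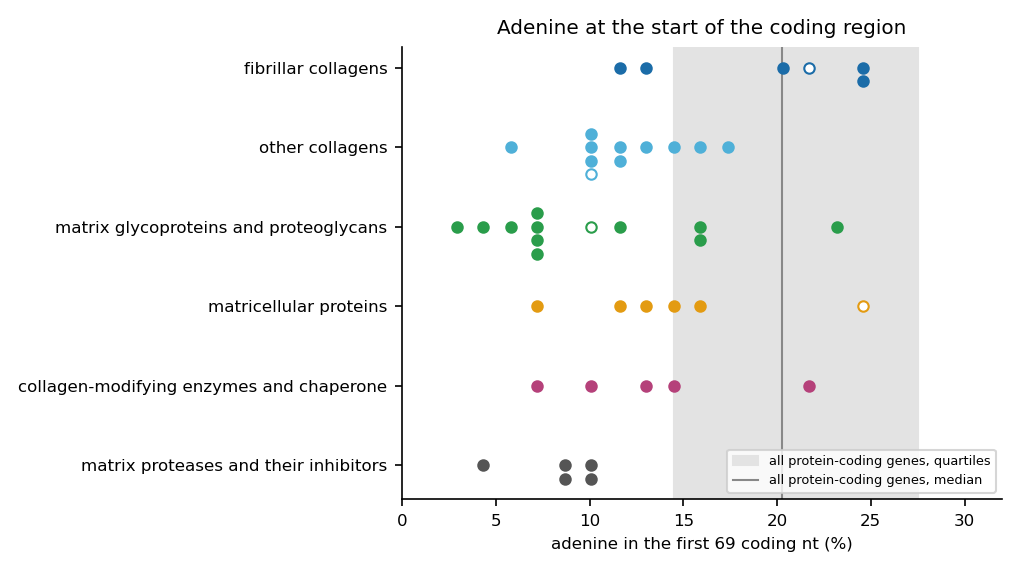
Percent adenine in the first 69 coding nt, by role group, with 1 point per member; open points are members with a mean of 1 FPKM or less, and the grey band and line are the quartiles (14.5% to 27.5%) and the median (20.3%) of all protein-coding genes tested. Of the 41 members above 1 FPKM, 36 lie below that median.

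A second shared feature is the collagen repeat. The longest uninterrupted run of Gly-X-Y codons was 338 repeats in COL1A1, 69.3% of its coding sequence, and 343 in COL3A1, 339 in COL5A2, 338 in COL5A1 and 338 in COL11A1. COL4A1 of the basement membrane network had 40, and COL12A1, a collagen that binds to the surface of fibrils, had 32, or 3.1% of its coding sequence. The first 3 repeats of those runs are given for a long and a short run, with the glycine codons in capitals.
COL1A1: GGCcccatgGGTccctctGGTcctcgt
COL12A1: GGAgagcaaGGTcgccaaGGGatgaaa
The 41 members also had longer transcripts and more exons than other genes. The median mature mRNA was 5515 nt, against 3318.5 nt for 12290 protein-coding genes tested, the median pre-mRNA was 75204 nt against 28352 nt, and the median number of exons was 32 against 9.

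In depth, 1 FPKM on a transcript of 1 kb stood for 32.3 to 89.4 reads in a library, as recovered from the spacing of low values. TPR itself was at 28.2, 25.7 and 25.3 FPKM in the 3 control total libraries, at 4.36, 3.44 and 4.70 with TPR A and at 3.23, 4.74 and 6.01 with TPR D. The log2 differences were -2.59 with TPR A (SE 0.36, adjusted p = 0.0012, limma) and -2.44 with TPR D (adjusted p = 0.0016). The nuclear and total libraries of control replicate 2 stood apart from their labels. Transcripts of the mitochondrial genome made up 0.774% to 2.42% of summed FPKM in the other 8 nuclear libraries and 15.8% to 24.7% in the other 8 total libraries, and here they made up 21.8% of the library labelled nuclear and 0.738% of the library labelled total. MALAT1, a nuclear long non-coding RNA, was at 83.6 FPKM in the library labelled nuclear and at 16.3 in the one labelled total, where the other libraries held 16.3 to 40.1 and 71.6 to 207 FPKM. On both measures the library labelled nuclear lay within the range of the other total libraries, and the one labelled total lay at or near the lower end of the other nuclear libraries, as if the 2 had been exchanged. Over the other 8 libraries of each fraction, the medians of MALAT1 were 22.5 FPKM in nuclear, 8.56 in cytoplasmic/ER and 126 in total libraries. Those of NEAT1, another nuclear long non-coding RNA, were 35.1, 9.35 and 108. Both were thus lower in the nuclear than in the total libraries. This limits what the nuclear fraction stands for, and its cause was not tested. The labels were kept, and main results are given with and without control replicate 2. The levels given by fraction include these libraries. The one labelled nuclear was the lowest nuclear library for 25 of the 41 members, and the one labelled total the highest total library for 14. Of the osteoblast lineage markers, RUNX2 (mean 15.7 FPKM over 27 libraries), ALPL (4.26) and SPP1 (3.02) were present, and SP7 (0.0224), IBSP (0.0101) and BGLAP (0.0729) were near 0. Of the markers of other cell types, KRT19, CD3E and CDH5 were near 0, with means of 0.0424, 0.00531 and 0.0196 FPKM. The epithelial marker CDH1 had 0.627, the blood cell marker PTPRC 0.382 and the endothelial marker VWF 0.341, whereas EPCAM had 3.88 and CD68 had 10.0. In bulk samples, fewer cells with a transcript and less of it in each cell cannot be told apart.

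In the total fraction the matrix genes ranged over nearly the whole span of expression. Of the 45, 37 had a mean of at least 10 FPKM over the 9 total libraries and 8 had at least 100. TIMP1, a secreted inhibitor of matrix metalloproteinases, was the most abundant, with 1055 FPKM in the lowest total library, a median of 1250 and 1986 in the highest. Its lowest total library was above every total library of every other member. SPARC, a collagen-binding matricellular protein, had 269, 445 and 560 FPKM in the lowest, median and highest library, and TGFBI, an adhesion protein of the matrix, had 242, 366 and 567. Those ranges overlapped. CCN1 and CCN2, secreted regulators of adhesion, the gelatinase MMP2, the adhesive glycoprotein THBS1 and the collagen chaperone SERPINH1 completed the 8, with means of 232, 127, 159, 135 and 118 FPKM and overlapping ranges.

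Collagens were lower. COL6A2, a chain of microfibril-forming type VI collagen, led them with 35.7, 68.3 and 121 FPKM, and COL1A1, the main chain of bone collagen, led the fibrillar group with 20.6, 40.5 and 58.5. COL1A2, which pairs with COL1A1 in the type I heterotrimer, was near 0 in every library, between 0.0302 and 0.744 FPKM with a median of 0.217. The other 3 members left out of the test were spread around 1 FPKM or below it. They were COL7A1 of anchoring fibrils (0.036 to 3.04 FPKM), the small proteoglycan BGN (0.159 to 1.65) and POSTN, a matricellular protein of periosteum (0 to 0.326). COL7A1 exceeded 1 FPKM in every total library, where it ran from 1.03 to 3.04, and in no cytoplasmic/ER library, where it ran from 0.036 to 0.222.

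Ratios between neighbouring collagen genes spread less for the chains of type IV and type VI collagen than for COL5A2 and COL3A1. COL4A2 was 1.56 to 2.98 times as abundant as COL4A1 in the 9 total libraries. These genes lie head to head on opposite strands of chromosome 13, and their annotated bodies overlap by 1346 nt. The paper used a directional library kit, and the assignment of reads from that stretch was not checked. COL6A2 was 1.78 to 2.96 times as abundant as COL6A1, whose gene ends 93061 nt before it. COL5A2 and COL3A1, neighbours whose 3′ ends are 19151 nt apart, had ratios from 0.891 to 6.99. COL3A1 was the variable partner, with 2.15, 6.35 and 11.7 FPKM in the lowest, median and highest total library.

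**Figure D2:**
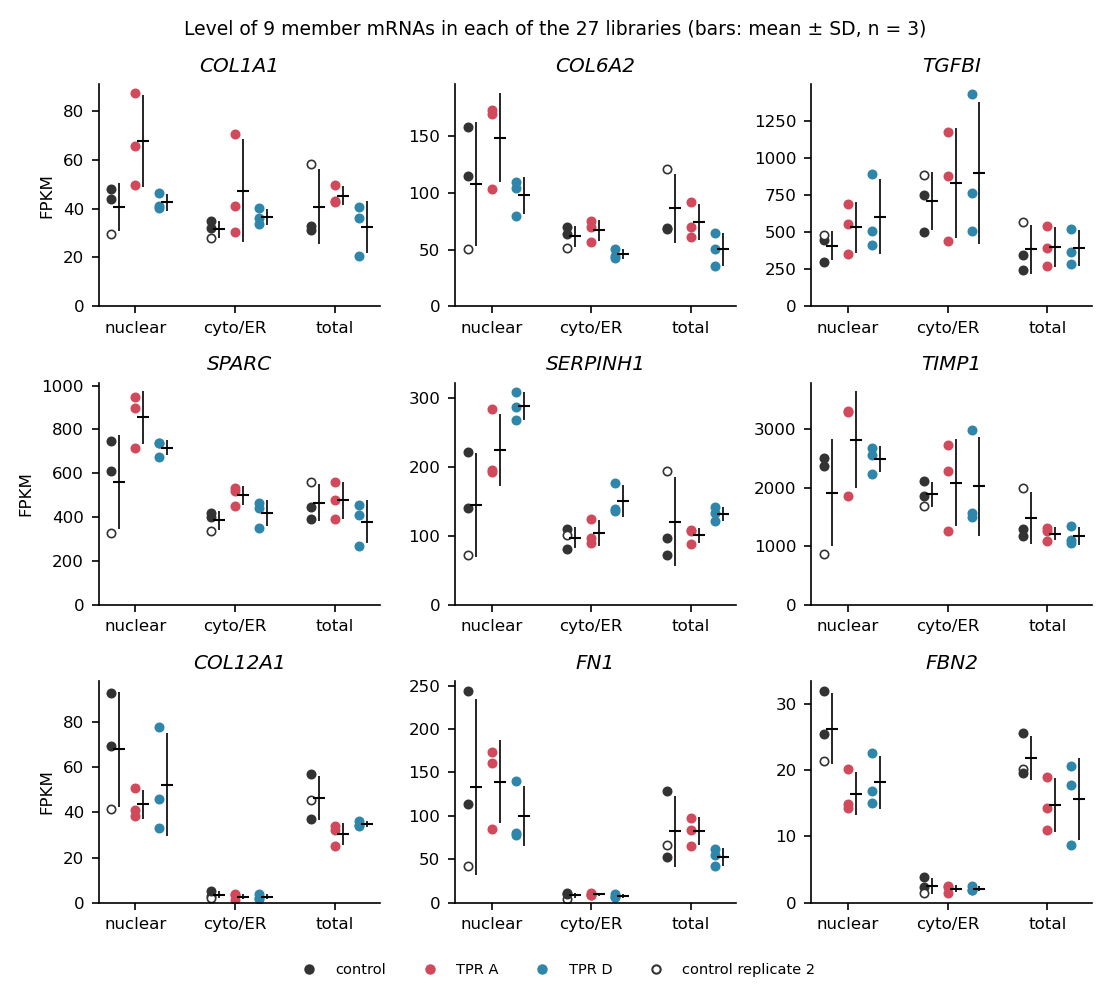
FPKM of 9 members in each library by fraction and shRNA, with 1 point per library, bars for the mean ± SD (n = 3) and open circles for control replicate 2. COL12A1, FN1 and FBN2 are lowest in the cytoplasmic/ER fraction in every culture, and TGFBI is highest there.

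The first comparison asked where the polyadenylated matrix mRNAs lay between nucleus and cytoplasm. It used log2 N/C, the log2 level in the nuclear library minus that in the cytoplasmic/ER library, on FPKM scaled by size factors with 0.1 added. FPKM is relative to the other mRNAs of the same fraction, so a positive log2 N/C means a larger share of nuclear than of cytoplasmic/ER mRNA and not more molecules. Over the 3 shRNAs, 37 of the 41 members were higher in the nuclear fraction at an adjusted p under 0.05, where 30.0% of all genes tested were. TGFBI was lower, where 29.2% of all genes were, and TIMP1, TIMP2 and TIMP3 did not pass the test. The median over members was 1.76, against -0.01 over all genes tested. When control replicate 2 was left out, 38 were higher and none was lower (TGFBI at an unadjusted p under 0.05 only), and the median was 1.81. The share of all genes in that fit is not given.

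Among the fibrillar collagens, 5 of 5 were higher in the nuclear fraction, with a median log2 N/C of 1.99. COL11A1, which nucleates cartilage-type fibrils, had 15.4, 19.1 and 29.6 FPKM in the lowest, median and highest nuclear library and 2.09, 3.21 and 4.90 in the cytoplasmic/ER libraries. The fractions did not overlap, and log2 N/C was 2.68 (SE 0.21, 6.42-fold, adjusted p = 9.59e-10). COL5A2, which with COL5A1 sets fibril width, had 8.20, 16.1 and 28.1 FPKM in nuclear and 1.47, 3.0 and 4.85 in cytoplasmic/ER libraries, again without overlap. Its log2 N/C was 2.46 (5.52-fold, adjusted p = 1.31e-08). COL1A1 had 29.6, 46.5 and 87.5 FPKM in nuclear and 27.8, 34.7 and 70.7 in cytoplasmic/ER libraries, so its fractions overlapped over most of their range. Its log2 N/C was 0.40 (SE 0.17, adjusted p = 0.0446), and this call was lost in several of the other settings described in the closing section.

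All 10 of the other collagens were higher in the nuclear fraction, with a median of 1.94. COL12A1 was the most nuclear of all members, with 33.2, 46.0 and 92.6 FPKM in nuclear and 1.35, 3.17 and 5.31 in cytoplasmic/ER libraries. The lowest nuclear library was above the highest cytoplasmic/ER library, and log2 N/C was 4.17 (SE 0.22, 18.0-fold, adjusted p = 4.47e-12). COL4A1 had a log2 N/C of 2.65 (6.26-fold, adjusted p = 1.04e-08), the fibril-associated COL16A1 had 2.29 (4.87-fold, adjusted p = 4.45e-09) and the short-chain COL8A1 had 1.87 (3.65-fold, adjusted p = 1.29e-08). COL6A2 was the least nuclear of them, with 50.1, 110 and 173 FPKM in nuclear and 42.6, 56.4 and 74.8 in cytoplasmic/ER libraries and a log2 N/C of 0.98 (SE 0.18, 1.97-fold). Its lowest nuclear library was that of control replicate 2, and the next lowest, at 79.4 FPKM, was above all the cytoplasmic/ER libraries.

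Of the 11 glycoproteins and proteoglycans, 10 were higher in the nuclear fraction and TGFBI was lower, with a median of 1.88. FN1, fibronectin, had 42.8, 114 and 243 FPKM in nuclear and 4.56, 9.21 and 11.1 in cytoplasmic/ER libraries, and log2 N/C was 3.74 (SE 0.26, 13.4-fold, adjusted p = 2.64e-10). The microfibril proteins FBN2 and FBN1 had similar values to each other, 3.12 (8.70-fold, adjusted p = 3.69e-11) and 3.12 (8.67-fold, adjusted p = 1.57e-09), at different levels. FBN2 had 14.3, 20.1 and 31.9 FPKM in nuclear libraries and FBN1 5.20, 11.4 and 26.1. The basement membrane proteins LAMB1, a laminin chain, and NID1, which links laminin to type IV collagen, had 2.16 (SE 0.15, 4.46-fold, adjusted p = 3.98e-10) and 1.57 (SE 0.15, 2.97-fold, adjusted p = 1.49e-08).

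TGFBI went the other way. It had 296, 479 and 890 FPKM in nuclear and 439, 764 and 1436 in cytoplasmic/ER libraries. The cytoplasmic/ER library was the higher in each of the 9 cultures, although the ranges overlapped, and log2 N/C was -0.61 (SE 0.24, adjusted p = 0.0318). In control cells alone it was -0.76 and did not pass the test, and with the culture as a block in control cells its adjusted p was 0.00112.

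All 5 matricellular genes were higher in the nuclear fraction, with a median of 1.56. TNC, an anti-adhesive glycoprotein of bone and tumour stroma, had 19.2, 26.0 and 62.9 FPKM in nuclear and 3.58, 4.6 and 6.49 in cytoplasmic/ER libraries, without overlap, and log2 N/C was 2.54 (5.80-fold, adjusted p = 1.03e-08). SPARC, the most abundant of them, had the smallest value, 0.70 (1.62-fold, adjusted p = 0.000217). The 5 enzymes and chaperone were all higher in the nuclear fraction too, with a median of 1.26, between SERPINH1 at 0.85 (1.81-fold) and the prolyl hydroxylase subunit P4HA2 at 1.49 (2.81-fold). Of the 5 proteases and inhibitors, 2 were higher in the nuclear fraction. MMP14, a membrane-bound collagenase, had 1.34 and MMP2 0.51 (adjusted p = 0.0154), whereas TIMP1 had 0.26 (adjusted p = 0.275), TIMP3 0.23 and TIMP2 -0.08 (adjusted p = 0.649). The median of these 5 was 0.26.

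**Figure D3:**
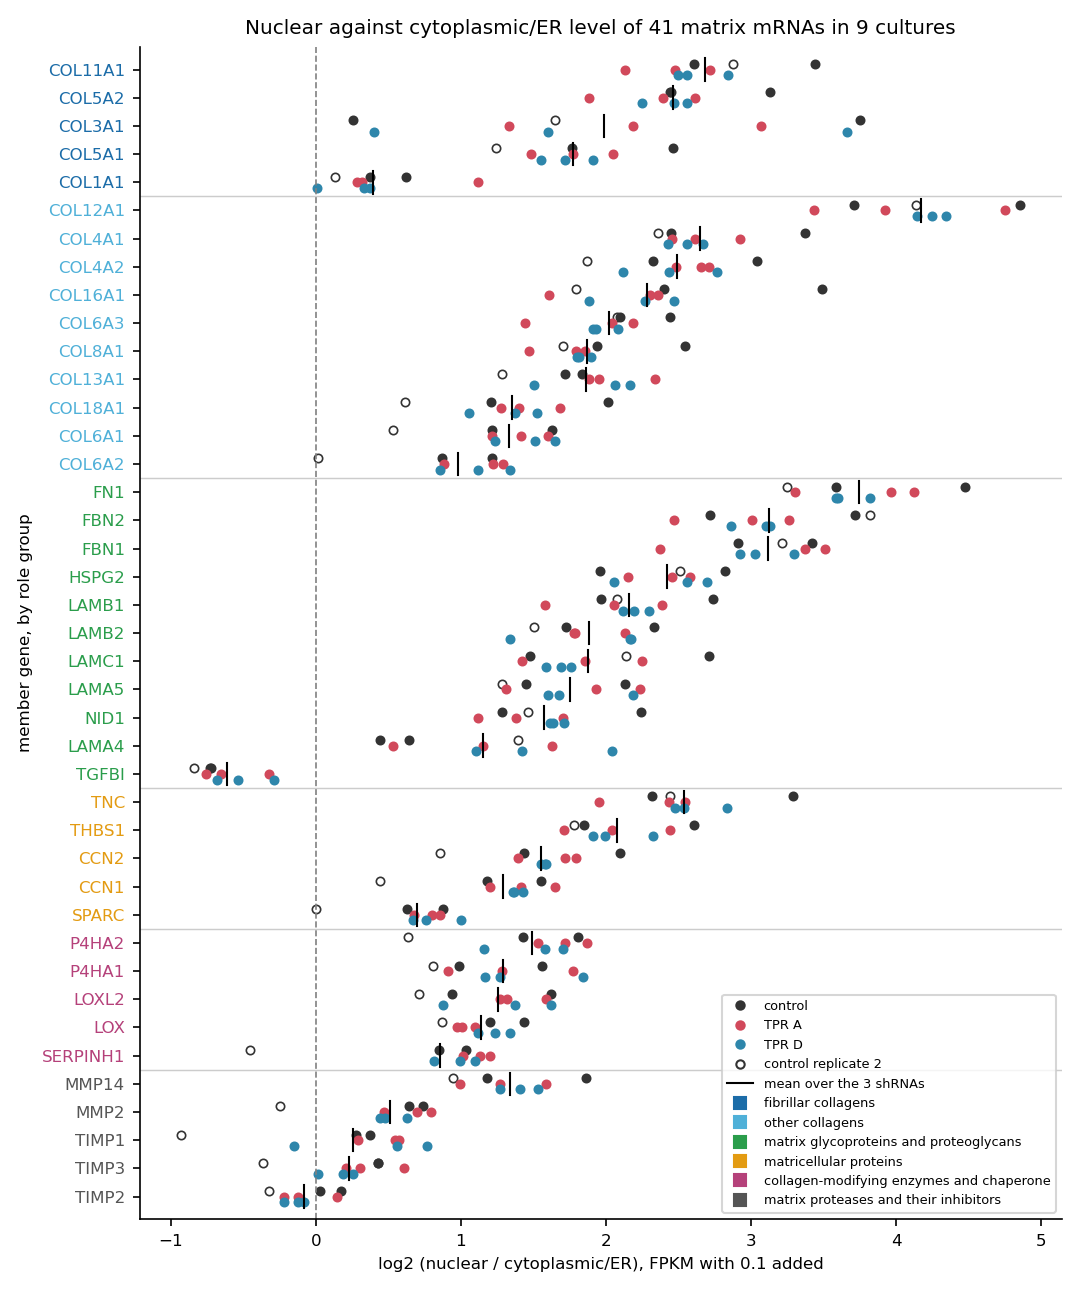
Log2 N/C of the 41 members above 1 FPKM in each of the 9 cultures, by gene and role group, with 1 point per culture and a tick for the mean over the 3 shRNAs. COL12A1 (4.17) is the most nuclear and TGFBI (-0.61) the least, and the member medians of single cultures run from 1.29 to 2.13.

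The same direction was seen culture by culture. The median over the 41 members lay between 1.29 and 2.13 in the 9 cultures, and between 35 and 40 members were above 0 in each, with the 35 in control replicate 2. In 20 of the 41 members the 9 nuclear libraries lay above all 9 cytoplasmic/ER libraries, where 10.4% of all genes did. Leaving out control replicate 2, this held for 27 of 41 members and 12.4% of genes. With the control shRNA alone, 29 of 41 were higher in the nuclear fraction and none was lower, where 20.2% of genes were higher and 19.2% lower, and the median was 1.62. No member was lower at an unadjusted p under 0.05 there either. Without control replicate 2 the 29 became 32 and the median 1.78, and the share of all genes in that fit is not given.

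Log2 N/C varied among the members with the length of the mRNA. Spearman's rho across the 41 members was 0.741 with mRNA length, 0.675 with the number of exons and 0.594 with pre-mRNA length. Across 12290 protein-coding genes rho with mRNA length was 0.413, so length was related to N/C well beyond the matrix genes. These are descriptions across genes of the same libraries, which are not independent replicates, and N/C of longer mRNAs rests on more reads per FPKM. The values were 0.720 and 0.377 without control replicate 2. Members also lay above the genes of their own length. The 12 members between 2000 and 4000 nt had a median log2 N/C of 1.12, where 4427 protein-coding genes of that length had 0.02. The 12 between 4000 and 6000 nt had 1.53, where all protein-coding genes of that length had 0.22. The 9 above 8000 nt, COL12A1, FN1 and the fibrillins among them, had 2.54, where all protein-coding genes of that length had 0.55.

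A line fitted through all protein-coding genes rose by 0.34 in log2 N/C per doubling of mRNA length. Of the 41 members 38 lay above it, or 92.7%, where 48.7% of all protein-coding genes did, and the members' median distance was 1.36. TGFBI, TIMP2 and TIMP3 lay below it, by 0.61, 0.22 and 0.02. With control replicate 2 left out, 39 members lay above and the median distance was 1.39. The adenine share at the coding start was less related to N/C, with a rho of 0.287 over the members and 0.094 over all protein-coding genes.

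**Figure D4:**
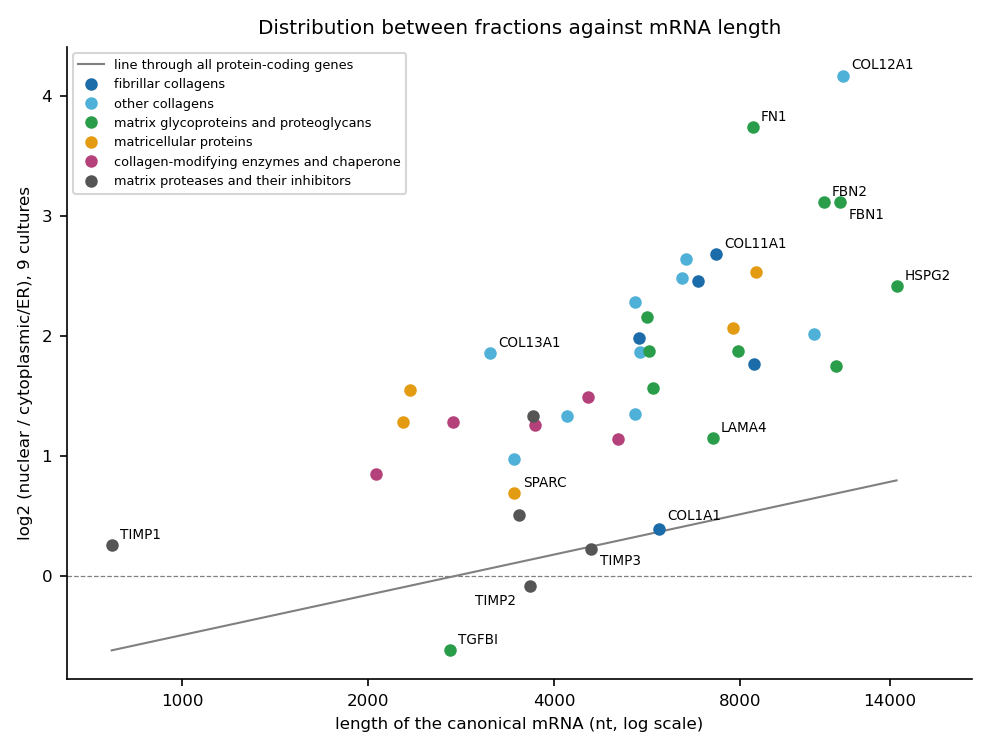
Log2 N/C over all cultures against the length of the canonical mRNA in nt (log axis), with 1 point per member and the line fitted through all protein-coding genes (slope 0.34 per doubling). 38 of the 41 members lie above the line.

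Genes of connected pathways were counted in the same comparison. Of 24 genes for collagen maturation and secretion outside the members, 16 were higher in the nuclear fraction and 1 lower, with a median of 0.56. MIA3, which loads collagen into transport carriers, had 2.51, the lysyl hydroxylase PLOD2 1.49, the prolyl hydroxylases P3H1 1.12 and P3H2 0.80. CRTAP, a partner of P3H1, was the gene that was lower, at -0.44. Of 16 matrix receptors, 12 were higher and none was lower, at an unadjusted p under 0.05 too, with a median of 0.65, among them the integrins ITGA2 (2.16), ITGAV (1.84) and ITGB1 (1.35) and the collagen receptor DDR2 (1.30). Of 16 genes of TGF-beta and YAP signalling, which control many matrix genes, 6 were higher, such as the ligand TGFB2 (1.84), and 5 lower, among them TEAD4 (-1.06), SMAD2 (-0.96) and the ligand TGFB1 (-0.92). Of 19 genes of the secretory route to the ER, 5 were higher, among them SRP54 (1.44) of the signal recognition particle, and 5 lower, among them SPCS1 (-0.49) of signal peptidase, with a median of 0.03. As given above, 30.0% of all genes were higher and 29.2% lower, so the shares of these 2 lists lay near those of all genes.

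The second comparison asked what depletion of TPR did to the levels of the matrix mRNAs in whole cells. In the total fraction none of the 41 members passed the test with either shRNA. With TPR A the test called 0.821% of all genes, and 4 of the 41 members were at an unadjusted p under 0.05, where 12.6% of genes were. With TPR D it called 0.753% of all genes, and 4 members were at an unadjusted p under 0.05, where 14.6% of genes were. The median log2 difference over the members was -0.15 with TPR A, with 26 of 41 below 0, and -0.27 with TPR D, with 32 of 41 below 0, whereas that over all genes was -0.01 with each. Both comparisons use the same 3 control libraries. Standard errors ran from 0.21 to 0.90 with a median of 0.36, so differences of this size in single members were not detectable with 3 libraries a group. The medians were -0.12 and -0.17 without control replicate 2. Of the cell type markers, CD68, a lysosomal protein used as a macrophage marker, had log2 differences of 1.06 with TPR A (adjusted p = 0.262) and 1.13 with TPR D (adjusted p = 0.197). The 3 osteoblast lineage markers above 1 FPKM had medians of 0.82 and 0.04 with TPR A and TPR D, with 2 and 1 of them higher at an unadjusted p under 0.05. Their part in the values of the matrix genes was not tested.

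The most abundant member of each role group passed no test in the total fraction. The log2 differences with TPR A and TPR D were 0.27 and -0.25 for COL1A1 (SE 0.29), -0.12 and -0.69 for COL6A2 (SE 0.32), 0.16 and 0.15 for TGFBI (SE 0.42) and 0.10 and -0.24 for SPARC (SE 0.25). They were -0.07 and 0.34 for SERPINH1 (SE 0.31) and -0.19 and -0.23 for TIMP1 (SE 0.35). The adjusted p values of COL6A2 were 0.908 and 0.312, and those of the others were all higher than 0.6. COL6A2 with TPR D was at 35.7, 50.03 and 64.5 FPKM where the controls had 69.4, 121 and 68.3, without overlap. The control library at 121 FPKM was control replicate 2, and in the fit that leaves it out the difference was -0.46 (adjusted p = 0.659).

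**Figure D5:**
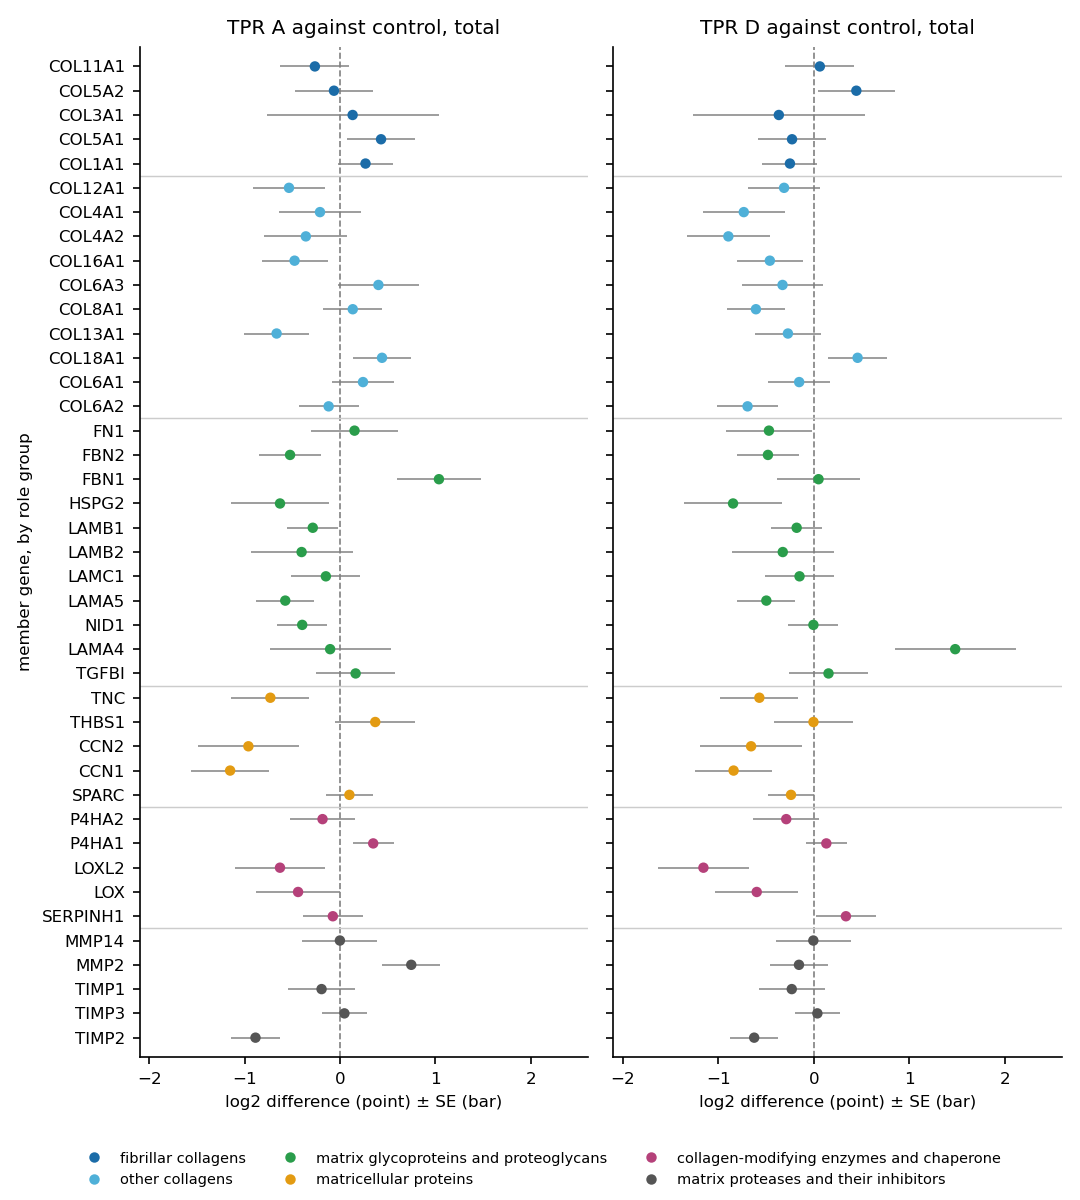
Log2 difference in the total fraction against control for TPR A and TPR D, with 1 point per member and shRNA and bars for the standard error. None of the 41 members passed the test with either shRNA, and the differences run from -1.16 (LOXL2, TPR D) to 1.48 (LAMA4, TPR D).

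TIMP2, an inhibitor that also helps to activate MMP2, lay below the controls with both shRNAs in the total libraries. It was at 97.7, 110.0 and 149 FPKM in the control libraries, at 56.8, 52.2 and 75.1 with TPR A and at 65.8, 64.1 and 87.9 with TPR D. Neither TPR group overlapped the controls. The log2 difference was -0.89 with TPR A (SE 0.25, adjusted p = 0.104, limma) and -0.63 with TPR D (SE 0.25, adjusted p = 0.263). When replicate numbers were blocked, with a block shared by all 9 groups, TIMP2 with TPR A had an adjusted p of 0.0113 (limma). Same-numbered TPR A and control total libraries deviated together, but those of the other TPR and control groups did not all do so. Without control replicate 2 the difference for TIMP2 with TPR A was -0.96 (adjusted p = 0.123). Over the 17 other settings its adjusted p ran from 0.0113 to 0.548.

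CCN1, an early response gene whose protein binds integrins, had the lowest value with TPR A. Its total libraries were at 194, 590 and 315 FPKM in controls, at 130, 142 and 156 with TPR A and at 286, 133 and 141 with TPR D. The controls were spread widely, and only TPR A lay wholly below them. The log2 difference with TPR A was -1.15 (SE 0.41, adjusted p = 0.215), and without control replicate 2, the highest control library, it was -0.76 (adjusted p = 0.693). All 5 matricellular genes were below 0 with TPR D and 3 of 5 with TPR A, with medians of -0.57 and -0.73. The highest of the 5 with TPR D was at -0.004. Of the 14611 genes tested, 7426 were below 0 with TPR D and 7390 with TPR A. These counts include control replicate 2.

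FBN1 and LAMA4 were the highest values of each shRNA, and each stood higher with a single shRNA. FBN1 was at 5.5, 6.1 and 9.7 FPKM in control total libraries, at 13.5, 10.7 and 17.6 with TPR A and at 5.66, 6.37 and 8.54 with TPR D. Its log2 difference with TPR A was 1.04 (SE 0.44, adjusted p = 0.319). LAMA4, a laminin chain of vessel and muscle basement membranes and the least abundant of the 41, was at 1.34, 1.46 and 1.64 FPKM in controls, at 1.55, 0.831 and 1.73 with TPR A and at 4.17, 2.85 and 5.72 with TPR D. The TPR D libraries lay above all the others, and the log2 difference with TPR D was 1.48 (SE 0.63, adjusted p = 0.285). LOXL2, a lysyl oxidase, had the lowest value with TPR D, -1.16 (SE 0.48, adjusted p = 0.269), or -0.79 without control replicate 2.

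The shRNAs were also compared with each other in the total fraction. None of the 41 members passed the test, where 0.281% of all genes did, and 4 were at an unadjusted p under 0.05, where 7.41% of genes were. LAMA4 was lower with TPR A than with TPR D by a log2 difference of -1.58 (adjusted p = 0.485), and FBN1 was higher by 0.99 (adjusted p = 0.584). MMP2 was at 201, 245 and 220 FPKM with TPR A and at 105, 114 and 134 with TPR D, without overlap, and had a log2 difference of 0.90 (SE 0.30, adjusted p = 0.312). Over 17 other settings its adjusted p ran from 0.0265, without control replicate 2, to 0.995. That fit leaves out no TPR library.

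Members whose 3 TPR libraries did not overlap the 3 control libraries were counted too. In the total fraction 3 members were higher and 5 lower with TPR A, where 9.74% of genes were higher and 8.33% lower. FBN1, P4HA1 and MMP2 were higher, and COL12A1, LAMA5, NID1, CCN1 and TIMP2 were lower. With TPR D LAMA4 was higher and 6 members were lower, where 8.20% and 7.93% of genes were. These were COL4A1, COL4A2, COL6A2, COL8A1, COL12A1 and TIMP2. COL12A1 and TIMP2 were on both lists of lower members. Against the 2 other control libraries, without control replicate 2, the counts were 7 higher and 7 lower for TPR A, where 14.17% and 15.24% of genes were, and 4 higher and 7 lower for TPR D, where 11.74% and 13.04% of genes were. COL12A1 was at 56.7, 45.4 and 37.1 FPKM in controls, at 33.9, 25.1 and 32.3 with TPR A and at 33.9, 36.3 and 34.4 with TPR D, and its log2 differences were -0.53 (SE 0.37) and -0.31.

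In the nuclear fraction none of the 41 passed the test either. With TPR A 0.903% of all genes did, and 9 members were at an unadjusted p under 0.05, where 12.2% of genes were. With TPR D 0.479% of genes did, and 2 members were at an unadjusted p under 0.05, where 9.13% of genes were. MMP2 was nearest to the threshold with TPR A. Its nuclear libraries were at 229, 78.7 and 266 FPKM in controls, at 316, 475 and 384 with TPR A and at 193, 165 and 202 with TPR D. Only TPR A lay above all controls, with a log2 difference of 1.20 (SE 0.30, adjusted p = 0.0632). Without control replicate 2, whose library labelled nuclear was the lowest, the difference was 0.66 (adjusted p = 0.199), and without control replicate 3 it was 1.53 (adjusted p = 0.0169). Over all 17 other settings the adjusted p ran from 0.0169 to 0.378.

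COL18A1, the collagen from which endostatin is cut, was at 7.96, 2.56 and 5.86 FPKM in control nuclear libraries and at 8.51, 11.7 and 13.1 with TPR A, where the log2 difference was 1.13 (adjusted p = 0.0827), or 0.68 without control replicate 2. SERPINH1 was at 222, 71.2 and 141 FPKM in controls and at 268, 309 and 287 with TPR D, above all controls. Its log2 difference was 1.15 (SE 0.31, adjusted p = 0.119), and without control replicate 2 it was 0.72 (adjusted p = 0.256). The lowest values were -0.83 for CCN1 with TPR A and -0.81 for HSPG2, the basement membrane proteoglycan perlecan, with TPR D. LAMA4 had the highest with TPR D, 1.94 (adjusted p = 0.231). The median over the members was 0.07 under TPR A and -0.02 under TPR D, and without control replicate 2 these became -0.37 and -0.39. Not overlapping the controls were 4 members above and 1 below with TPR A, where 8.16% of genes were above and 9.01% below. With TPR D 2 were above and none below, where 7.02% and 8.34% of genes were. Without control replicate 2 the numbers below were 13 with TPR A and 15 with TPR D, where 14.75% and 16.98% of genes were, against 2 control libraries. The numbers above were then 4 with TPR A and 2 with TPR D, where 13.28% and 14.37% of genes were.

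In the cytoplasmic/ER fraction none of the 41 passed the test. With TPR A 0.623% of genes did, and 8 members were at an unadjusted p under 0.05, where 11.6% of genes were. With TPR D 0.575% of genes did, and 2 members were at an unadjusted p under 0.05, where 9.42% of genes were. The medians were 0.12 and 0.01, and with single replicates left out they ran from -0.11 to 0.28 under TPR A and from -0.25 to 0.17 under TPR D, so their signs were not stable. CCN1 was at 147, 219 and 302 FPKM in controls, at 80.3, 75.9 and 124 with TPR A and at 181, 82.0 and 112 with TPR D, with log2 differences of -1.20 (SE 0.41, adjusted p = 0.203) and -0.82 (adjusted p = 0.547). TPR A did not overlap the controls and TPR D did. FBN1 was again the highest value with TPR A, 1.10 (adjusted p = 0.295), and LAMA4 with TPR D, 1.24 (adjusted p = 0.572). LAMA5, another laminin chain, was at 4.22, 3.76 and 6.26 FPKM in controls, at 2.66, 2.6 and 2.44 with TPR A and at 2.64, 2.26 and 2.72 with TPR D. Both TPR groups lay below the controls, with log2 differences of -0.80 (adjusted p = 0.269) and -0.82 (adjusted p = 0.299). Without overlap, 6 members were higher and 3 lower with TPR A, where 7.17% and 8.62% of genes were. COL5A1, COL8A1, COL18A1, SPARC, MMP2 and TIMP3 were higher, and LAMA5, CCN1 and TIMP2 were lower. With TPR D COL18A1 and SERPINH1 were higher and LAMA5 and HSPG2 lower, where 6.09% and 7.72% of genes were. Without control replicate 2 the counts were 6 and 4 with TPR A, where 9.77% and 12% of genes were. With TPR D they were 2 and 7, where 8.555% and 11.07% of genes were.

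The third comparison asked whether depletion of TPR moved the matrix mRNAs between the fractions, by the difference in log2 N/C between TPR and control cells. None of the 41 members and 0% of the genes tested passed the test with TPR A, with TPR D or with both shRNAs together. No member was at an unadjusted p under 0.05 either, where 1.47%, 0.821% and 1.72% of genes were. These shares are smaller than the 0.05 that no change at all would give. This fit could therefore hardly call a change, and the lack of calls does not show that there was none. With DESeq2, the paper reports a higher N/C ratio of histone and ribosomal protein mRNAs after TPR depletion in this series. The medians over the members were 0.05, 0.01 and 0.03. With TPR A the values ran from -0.53 for COL11A1 to 0.64 for SERPINH1, and with TPR D from -0.43 for the laminin chain LAMC1 to 0.69 for LAMA4. Over both shRNAs SERPINH1 was the highest, at 0.57, and FBN2 the lowest, at -0.44. The sizes of these extremes depended on single cultures. Without control replicate 2, SERPINH1 was at 0.18 with TPR A and 0.10 over both shRNAs, and FBN2 was at -0.24. Without control replicate 1, COL11A1 was at -0.30 with TPR A and LAMC1 at -0.13 with TPR D. LAMA4 was at 0.44 when TPR D replicate 2 was left out.

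The nuclear and cytoplasmic/ER libraries of a number come from 1 culture, and the change in N/C was fitted with the culture as a block as well. The median standard error over the members was 0.27 for each shRNA, where it was 0.51 without the block, and 0.24 for both together, where it was 0.44. None of the 41 members and 0 of the genes tested passed this test. No member was at an unadjusted p under 0.05 in any of the 3 comparisons, where 8.99%, 4.72% and 9.12% of genes were. The lowest adjusted p values of the members were 0.544, 0.943 and 0.559.

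The medians varied with the replicate. Replicate 1 is labelled in another style than replicates 2 and 3, and the labels name no batch. The median change in log2 N/C over the members was -0.60 under TPR A and -0.46 under TPR D in replicate 1, and 0.40 and 0.28 in replicates 2 and 3. Without control replicate 2 it was -0.13 and -0.14. The sign of this median therefore depended on which control cultures were used. The median change in the total fraction was below 0 in both sets, at -0.25 and -0.61 in replicate 1 and -0.11 and -0.11 in replicates 2 and 3. By culture, against the mean of the controls, the total medians were -0.11, 0.19 and -0.06 in controls, -0.35, -0.21 and 0.19 with TPR A and -0.60, -0.24 and 0.02 with TPR D, and the 3 groups overlapped.

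The paper reports that the N/C change after TPR depletion correlates negatively with mRNA length, pre-mRNA length and the number of exons. Here the change in log2 N/C was also related to mRNA length. Spearman's rho over the 41 members, for both shRNAs together, was -0.663, and it was -0.539 over 12290 protein-coding genes. These became -0.486 and -0.409 without control replicate 2. With pre-mRNA length, and control replicate 2 included, rho was -0.525 over the members and -0.526 over the protein-coding genes. By length, with control replicate 2 included, the members between 2000 and 4000 nt had a median change of 0.25. Those above 8000 nt had one of -0.10, where all protein-coding genes of these lengths had 0.02 and -0.24. The medians by length were not computed without control replicate 2. Leaving it out moved the members' median change from 0.05 to -0.13 for TPR A and from 0.01 to -0.14 for TPR D. All genes tested then had medians of 0.002 and -0.007. Whether members lay above genes of their own length without that culture was not tested.

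BGN, biglycan, was outside the test because its mean was at or under 1 FPKM, but its TPR libraries lay apart from the controls in every fraction. In the total fraction it was at 0.222, 0.192 and 0.264 FPKM in controls, at 0.535, 0.392 and 0.675 with TPR A and at 0.510, 0.680 and 0.875 with TPR D. In the nuclear fraction it was at 0.453, 0.159 and 0.513 in controls, at 0.733, 1.05 and 1.41 with TPR A and at 1.65, 1.16 and 1.59 with TPR D. In the cytoplasmic/ER fraction it was at 0.295, 0.232 and 0.394 in controls, at 0.662, 0.892 and 0.879 with TPR A and at 1.18, 1.53 and 0.999 with TPR D. Every TPR library lay above every control library of its fraction, with or without control replicate 2. Of the genes tested, 6.09% to 9.74% lay above the controls without overlap in a single fraction with 1 shRNA. The share that did so in every fraction with both shRNAs is not given, nor is that of genes at the level of BGN. The fractions come from the same cultures and both shRNAs share the controls, so these separations are not independent. BGN was singled out after its values were seen.

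When limma was run on all 30252 genes with no minimum level, BGN was higher with TPR D in the nuclear fraction, by 1.81 (SE 0.32, adjusted p = 0.0156), where 0.261% of genes were called, and in the cytoplasmic/ER fraction, by 1.73 (SE 0.32, adjusted p = 0.0150), where 0.479% were called. In the total fraction the value with TPR D was 1.32 (adjusted p = 0.0630). With TPR A the values were 1.35 (adjusted p = 0.0553), 1.19 (adjusted p = 0.107) and 0.99 (adjusted p = 0.185) in the nuclear, cytoplasmic/ER and total fractions. Its log2 N/C over all cultures was 0.25 (SE 0.18, adjusted p = 0.336), and the change in it with both shRNAs was 0.12 (SE 0.39). In the same fit COL1A2, COL7A1 and POSTN passed no comparison between TPR and control. COL1A2 had log2 differences of 0.43 under TPR A and 0.21 under TPR D in the total fraction.

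Few genes of the connected pathways passed the test with TPR depletion. In the total fraction P3H2 was lower with TPR A, by -0.88 (SE 0.20, adjusted p = 0.0406), where 0.821% of all genes were called. SPCS2 of signal peptidase was lower with TPR D, by -1.11 (SE 0.26, adjusted p = 0.0426), where 0.753% were. In the nuclear fraction the collagen receptor subunit ITGA2 was lower with TPR A, by -1.75 (SE 0.41, adjusted p = 0.0399), where 0.903% were. None of the 16 genes of TGF-beta and YAP signalling passed in any fraction with either shRNA. At an unadjusted p under 0.05 there were 2 or 3 of the 16 in each of the 6 comparisons, where 9.13% to 14.6% of genes were. The median log2 difference in the total fraction was -0.21 under TPR A and -0.29 under TPR D for collagen maturation and secretion, -0.18 and -0.33 for matrix receptors and -0.14 and -0.15 for the secretory route.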

How the data were processed

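Poly(A) RNA of 9 U2OS cultures was measured in 3 fractions, with 27 libraries in 9 groups of 3. The authors quantified reads with Salmon on GENCODE protein-coding and long non-coding transcripts, summed them per gene with tximport and deposited FPKM values. The labels also name DESeq2 and hg19, and versions were not given in the sources used here. Symbols were matched for 32776 of 34464 gene IDs and not for 1688.

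Each library was scaled by its median-of-ratios factor (0.954 to 1.06), 0.1 was added, and log2 values were fitted with limma 3.58.1 in R 4.3.3 (9 group means, eBayes with trend). The 13 mitochondrially encoded genes were excluded, as were all whose mean did not exceed 1 FPKM. This kept 14611 genes, and p-values were adjusted over these by Benjamini-Hochberg, with a threshold of 0.05, two-sided. Levels in the text are deposited FPKM, and fold changes are on the log2(FPKM + 0.1) scale, which understates changes of low genes. The scripts were tested on simulated data. Figures and sequences were made with Python 3.11.15.

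Depth was estimated from the spacing of low values, and counts were not used. The 45 genes and the pathway and marker lists were chosen with earlier results of these data known. Members named with values are those past the threshold (up to 12 by adjusted p), the most abundant of each role group, the extremes of each comparison and the members of 1 FPKM or less. TIMP2, MMP2, COL18A1, LAMA5, COL12A1 and BGN in the TPR comparisons, and the pathway genes beyond those called, were named after their values were seen. Same-numbered nuclear and cytoplasmic/ER libraries come from the same culture, and their deviations from the group means correlated in all 9 (r 0.223 to 0.469). Same-numbered TPR A and control total libraries also deviated together (r 0.324, 0.184 and 0.137), whereas the other pairs of TPR and control groups had at least 1 value below 0.1. Alternatives were a replicate block, a culture block, pseudocounts of 1 and 0.01, a minimum of 5 FPKM or none, FPKM as deposited without scaling, limma without trend, replicates 2 and 3 only, and leaving out each replicate of each shRNA in turn. The counts without control replicate 2 that concern mRNA length and overlap between libraries were added after the data were seen. PECAM1 was not matched to a row and is not reported.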

Additional observations from a re-analysis of the deposited data

How the results depend on the processing

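The 37 members higher in the nuclear fraction ranged from 35 to 38 when each replicate was left out, and the 29 of control cells from 21 to 32. Among TPR comparisons, leaving out a replicate gave 0 or 1 member in the nuclear fraction with TPR A (MMP2, when control replicate 3 was left out) and 0 or 1 for TPR A against TPR D (MMP2, when control replicate 2 was left out), and 0 to 0 in the others. A replicate block gave 1 call in the total fraction with TPR A (TIMP2, -0.89, adjusted p = 0.0113, limma), 1 with TPR D (LAMA4, 1.48, adjusted p = 0.0275), 2 in the nuclear fraction with TPR A (MMP2, adjusted p = 0.0289, and COL18A1, 1.13, adjusted p = 0.0398), 1 with TPR D (LAMA4, 1.94, adjusted p = 0.00606) and 1 for TPR A against TPR D (LAMA4, -1.58, adjusted p = 0.0273). Only for TPR A in the total fraction did all same-numbered pairs of TPR and control libraries deviate together, and apart from TGFBI in control cells the replicate block changed no other call of a named member. The shares of all genes called in the fits with a replicate block or without a replicate are not given here. The counts of members in those fits therefore cannot be set against all genes. When no minimum FPKM was set, 1 member (BGN) was called with TPR D in the nuclear and 1 in the cytoplasmic/ER fraction. Over all other settings TGFBI lost its N/C call in 6 and COL1A1 in 9.

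Among members that passed no test in the total fraction, some signs turned when a replicate was left out. TPR A ranged from -0.28 to 0.12 for COL6A2, from -0.10 to 0.46 for TGFBI, from -0.023 to 0.23 for SPARC, from -0.36 to 0.30 for SERPINH1 and from -0.32 to 0.0061 for TIMP1, where the highest values of COL6A2, TGFBI, SERPINH1 and TIMP1 came when control replicate 2 was left out. TPR D ranged from -0.43 to 0.045 for COL1A1 and from -0.11 to 0.45 for TGFBI. In replicates 2 and 3 alone, SPARC was at -0.040 with TPR A. The cause was not tested. The members' median change in N/C ranged from -0.15 to 0.26 for both shRNAs, and the total median from -0.29 to -0.10 with TPR A and from -0.37 to -0.095 with TPR D. At a given mRNA length, members near 1 FPKM rest on fewer reads than members at higher levels. The 3 libraries a group limit all TPR comparisons.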
